A study of Mus musculus with 6 samples.

Results

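The VEGF, angiopoietin and apelin genes are the secreted angiogenic ligands Vegfa, Pgf, Angpt1, Angpt2, Angpt4 and Apln and their endothelial receptors Kdr, Flt1, Tek and Aplnr. They were chosen by gene symbol, and all 10 were found among the 24422 genes of the count tables. RNA was sequenced from whole kidneys of 6 wild type C57BL/6 pups at postnatal day 15. In the iron-deficient group (FeD, 3 kidneys) dams were fed 2 to 6 ppm iron in a synthetic diet from before mating, through pregnancy and until the kidneys were taken, and in the control group (3 kidneys) dams were fed 220 ppm iron. Each kidney was a separate library, the number of litters was not given in the sources used here, so litter and diet cannot be told apart and P values cover the spread between these kidneys. No gene was deleted in either group; the deficiency reached the pups through the dam and was not limited to the kidney.

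Vascular endothelial growth factor A (Vegfa) is made in the kidney mainly by podocytes and tubule cells and acts on the endothelium beside them through Kdr (VEGFR2), while Flt1 (VEGFR1) binds the same ligand tightly and, also in a secreted form, holds it away from Kdr. Angpt1, made by cells around the vessel, activates the endothelial receptor Tek (Tie2) and keeps vessels quiet, and Angpt2, released by endothelial and mural cells of remodelling vessels, competes with it. Apelin (Apln) comes largely from sprouting endothelial cells and signals through the G protein-coupled receptor Aplnr. Several of these genes are known to respond to hypoxia-inducible factors (HIF), whose degradation needs iron.

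Raw counts per library ranged from 13732173 to 20853293. A signal of 3 counts, taken as the smallest a library can show, was 0.144 to 0.218 CPM (counts scaled to library size), and this floor covers counting error only. Values are given as normalized counts, that is counts scaled by TMM (a correction for library size and composition) to the mean library size, and are comparable between kidneys for a gene but not between genes. Kidney tubule genes were abundant in every library; of 6, 1 rose in FeD kidneys, 3 fell and 2 did not pass, from -2.22 on the log2 scale for the proximal tubule's phosphate transporter Slc34a1 to 1.13 for the collecting duct's water channel Aqp2. FeD kidney 2 stood apart, since it held 2373 normalized counts of the adrenal cortex gene Cyp11b1 against at most 5.18 in every other kidney, and the adrenal genes Cyp21a1 and Star were likewise highest in it. These are among 13 genes of blood, leukocytes and other tissues, of which 7 were tested, 4 passed as higher, 1 as lower and 2 did not pass. Cyp21a1 and Star, counted as higher, rest on FeD kidney 2 alone. The other genes that passed as higher were the leukocyte genes Cd68 (log2 fold change 1.12, adjusted P = 0.0010, edgeR) and Ptprc (0.56, adjusted P = 0.047). The gene that passed as lower was the leukocyte gene Cd79a (-2.38, adjusted P = 0.0048, edgeR). It was scarce, with means of 25.6 normalized counts in control and 4.69 in FeD kidneys. The leukocyte gene Cd3e was not tested, with means of 6.65 in control and 1.49 in FeD kidneys. FeD kidney 3 stood apart in several vascular genes, as described for each gene, and also outside them. For the tubule gene Slc12a1 it had 82876 normalized counts, against 47399 to 59116 in every other kidney. Over the counted genes, its chi-square per degree of freedom was 24.0 against FeD kidney 1 and 30.4 against FeD kidney 2. Between FeD kidneys 1 and 2 that value was 11.5. Values without FeD kidney 2 or FeD kidney 3 are given where they change a call or move a value by over 1.5 times.

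Tests were made by edgeR's quasi-likelihood method on all 15145 genes that passed its filter on low counts, with Benjamini-Hochberg adjustment over all of them. By this test 3 of the 10 genes, Angpt1, Angpt4 and Flt1, rose in FeD kidneys at an adjusted P under 0.05, beside 22.4% of all tested genes, and 5 genes, Angpt2, Apln, Aplnr, Kdr and Tek, fell, beside 23.3% of all tested genes. Vegfa and Pgf did not pass. With a fold change of at least 2 in addition, Angpt4 alone rose (4.34% of all tested genes) and Angpt2, Apln and Aplnr fell (5.69% of all tested genes). FeD and control kidneys did not overlap in 9 of the 10 genes, as in 58.1% of all tested genes. The median log2 fold change of the 10 was -0.52, against -0.0018 for all tested genes. Without FeD kidney 2, 2 of the genes rose and 4 fell at the adjusted P, and without FeD kidney 3 the numbers were 3 and 5.

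**Figure D1:**
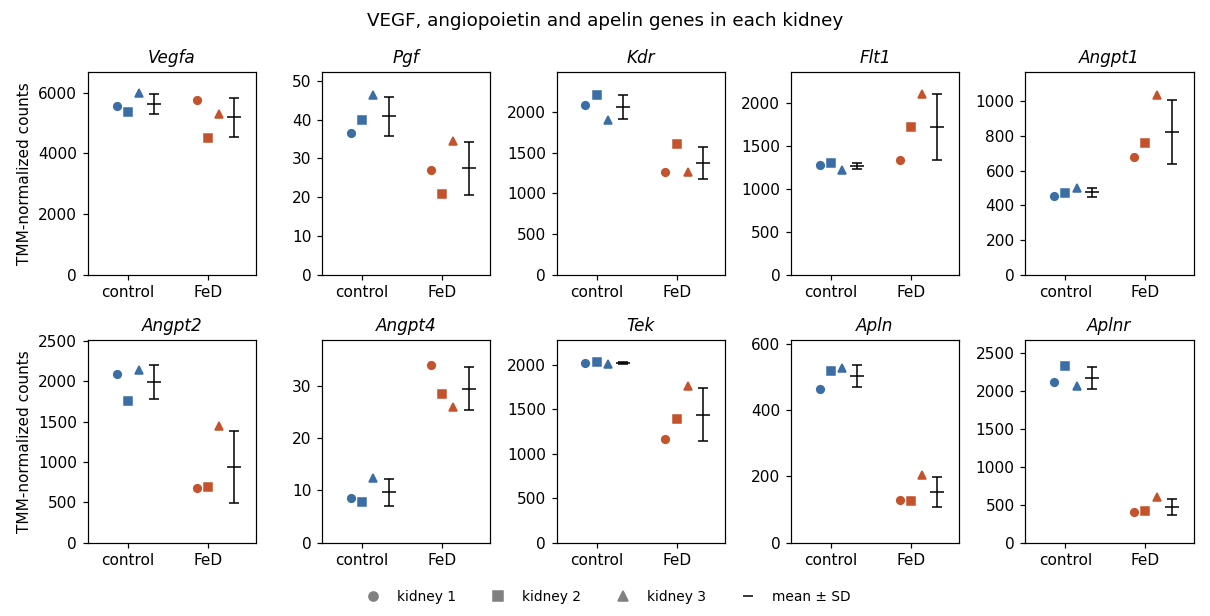
TMM-normalized counts of each of the 10 genes in every kidney; the vertical axis of each panel starts at 0, symbols mark kidneys 1 to 3 of each group, and the dash with bars is the mean ± SD of 3 kidneys. Aplnr, Apln and Angpt2 sat lower and Angpt1, Angpt4 and Flt1 higher in all FeD kidneys, and Vegfa overlapped between the groups.

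Bases just upstream of the annotated start are shown for Apln and Angpt4, which changed at least 2-fold in opposite directions, and for Kdr and Flt1, receptors of the same ligand that changed in opposite directions. Each line holds the 250 bases before the start, 5′ to 3′ on the gene's strand, from RefSeq on build GRCm38.p6, whose coordinates differ from those of the mm9 build used elsewhere. Capitals mark the core of the HIF binding motif, ACGTG or GCGTG, on either strand (CACGT or CACGC where it lies on the other strand).
Apln: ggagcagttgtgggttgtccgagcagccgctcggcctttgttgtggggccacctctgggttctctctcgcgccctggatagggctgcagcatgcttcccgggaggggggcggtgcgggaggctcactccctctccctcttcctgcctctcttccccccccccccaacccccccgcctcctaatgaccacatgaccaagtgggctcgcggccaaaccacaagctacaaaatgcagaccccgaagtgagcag
Angpt4: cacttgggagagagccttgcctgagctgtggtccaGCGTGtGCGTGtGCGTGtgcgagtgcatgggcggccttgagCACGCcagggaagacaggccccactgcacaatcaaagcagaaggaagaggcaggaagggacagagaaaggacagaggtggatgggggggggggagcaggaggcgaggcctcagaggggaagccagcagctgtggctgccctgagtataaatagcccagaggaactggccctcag
Kdr: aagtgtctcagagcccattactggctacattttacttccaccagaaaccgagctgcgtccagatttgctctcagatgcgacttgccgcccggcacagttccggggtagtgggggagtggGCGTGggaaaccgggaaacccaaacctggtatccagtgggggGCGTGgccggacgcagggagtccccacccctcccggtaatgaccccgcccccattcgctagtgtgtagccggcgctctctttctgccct
Flt1: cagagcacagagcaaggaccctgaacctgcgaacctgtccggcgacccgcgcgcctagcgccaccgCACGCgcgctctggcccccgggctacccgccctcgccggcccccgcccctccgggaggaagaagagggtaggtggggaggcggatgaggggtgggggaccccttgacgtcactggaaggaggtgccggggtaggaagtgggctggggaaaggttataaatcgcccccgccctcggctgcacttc
These windows lie at chrX:48034854-48035103 (minus strand), chr2:151910957-151911206 (plus strand), chr5:75978456-75978705 (minus strand) and chr5:147726012-147726261 (minus strand). The Apln window held 0 cores, Angpt4 held 4, of which 3 lie in a short GCGTG repeat, Kdr held 2 and Flt1 held 1. A core was found in 38.6% of the 32841 windows of this length in the table, so its presence is common. Windows were found for 7 of the 10 genes, and of their 9 windows 5 held a core. The windows of Vegfa, which did not pass the test, held 2 and 0 cores. The window with 2 cores lies at chr17:46025164-46025413 and that with 0 at chr17:46032378-46032627, both on the minus strand. The Vegfa window with 2 cores thus lies 3′ of the outer start, and the window before that outer start held 0. It is counted among the 5 windows with a core. The windows of Pgf held 0 and 1, and that of Tek held 0. Angpt1, Angpt2 and Aplnr had no window. A match describes these letters and does not mark a bound site.

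The apelin pair fell the most of the 10 genes. The receptor Aplnr (chromosome 2, 84976517 to 84980079, a gene of 1 exon) had 2117, 2334 and 2062 normalized counts in control kidneys and 398, 418 and 596 in FeD kidneys. Every FeD kidney lay far below every control kidney, and FeD kidney 3 was the highest of its group. The mean fell from 2171 ± 144 (SD, n = 3) to 471 ± 109, which is 21.7% of control (log2 fold change -2.20, standard error 0.15, adjusted P = 3.7e-05, edgeR). Its ligand Apln (chromosome X, 45378323 to 45388030) had 466, 518 and 527 normalized counts in control kidneys and 128, 126 and 204 in FeD kidneys. The groups were again far apart with FeD kidney 3 the highest of the FeD kidneys. The mean fell from 503 ± 32.8 to 153 ± 44.3, or 30.3% of control (log2 fold change -1.71, standard error 0.18, adjusted P = 0.00025, edgeR). With any kidney left out, the log2 fold change lay between -2.40 and -2.07 for Aplnr and between -1.97 and -1.57 for Apln.

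Apela, which encodes the other peptide ligand of Aplnr, moved the same way by less. It had 1723, 1781 and 1720 normalized counts in control kidneys and 1034, 1032 and 1120 in FeD kidneys. All FeD kidneys were lower, with little spread in either group (61.0% of control, log2 fold change -0.71, standard error 0.060, adjusted P = 9.4e-05, edgeR). The ratio of Apln to Aplnr counts was 0.220, 0.222 and 0.255 in control and 0.322, 0.301 and 0.342 in FeD kidneys, so the receptor fell by more than the ligand in all of them. On the log2 scale this ratio rose by 0.47, and its exact two-sided permutation P was 0.10, the smallest that 3 kidneys against 3 allow.

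The angiopoietins split, with the Tek agonist Angpt1 higher and the competitor Angpt2 lower. Angpt1 (chromosome 15, 42256273 to 42508523) had 451, 470 and 503 normalized counts in control kidneys and 680, 760 and 1034 in FeD kidneys. The lowest FeD kidney lay above the highest control kidney, and FeD kidney 3 was again the highest. The mean rose 1.74-fold, from 475 ± 25.9 to 825 ± 186 (log2 fold change 0.80, standard error 0.15, adjusted P = 0.0035, edgeR), and with any kidney left out the log2 fold change lay between 0.61 and 0.94. The annotated exons of Gm17473, on the opposite strand, cover 6.65% of the exon bases of Angpt1, and whether the authors' counting used the strand was not given in the sources used here.

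Angpt2 (chromosome 8, 18690263 to 18741562) had 2083, 1755 and 2138 normalized counts in control kidneys and 673, 684 and 1446 in FeD kidneys. All FeD kidneys were lower, but FeD kidney 3 lay nearer to the controls, at 2.13 times the mean of FeD kidneys 1 and 2. The mean fell from 1992 ± 207 to 934 ± 443, or 46.9% of control (log2 fold change -1.08, standard error 0.27, adjusted P = 0.012, edgeR). The size of this fall depended on which FeD kidneys were included. Without FeD kidney 3 the fall was larger, with a log2 fold change of -1.54. Without FeD kidney 1 or FeD kidney 2 the log2 fold change was -0.87 or -0.89, short of 2-fold.

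The plot of ratios sets both angiopoietins side by side in each kidney. Control kidneys held 4.61, 3.73 and 4.25 counts of Angpt2 per count of Angpt1, and FeD kidneys held 0.990, 0.901 and 1.40. The groups did not overlap and no FeD kidney came near a control kidney, FeD kidney 3 included. The mean log2 ratio went from 2.06 ± 0.15 to 0.11 ± 0.33, a difference of -1.96 (exact two-sided permutation P = 0.10, the smallest this design allows; P = 0.13 after Benjamini-Hochberg adjustment over 10 ratios). An effect of gene length that is the same in every kidney cancels in a change of such a ratio, though not in its level. An effect of length that differs between the groups does not cancel.

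**Figure D2:**
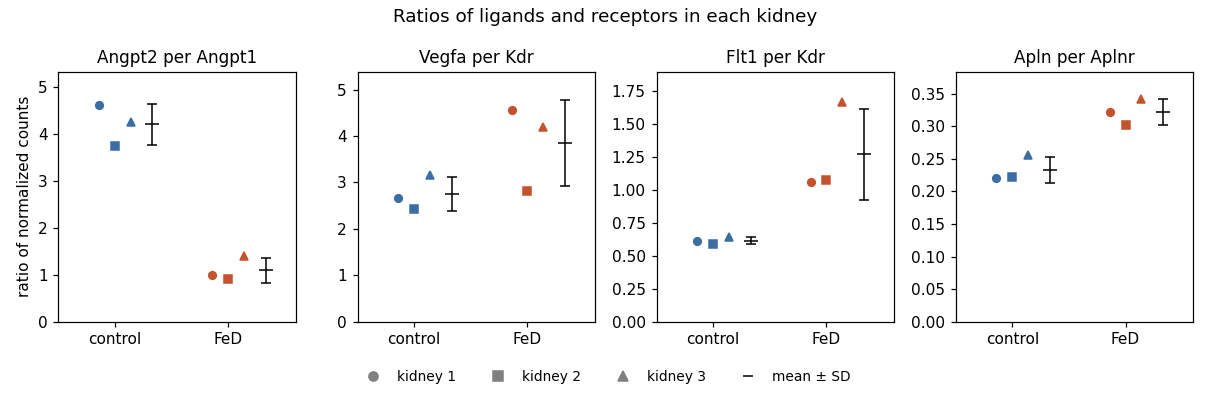
Ratios of normalized counts of 4 gene pairs in every kidney (vertical axes start at 0; symbols mark kidneys 1 to 3, and the dash with bars is the mean ± SD of 3 kidneys). Angpt2 per Angpt1 fell from 3.73 to 4.61 in control to 0.901 to 1.40 in FeD kidneys, Flt1 per Kdr and Apln per Aplnr were higher in every FeD kidney, and Vegfa per Kdr overlapped.

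Angpt4 (chromosome 2, 151736943 to 151771073), another Tek ligand, was scarce but rose. It had 8.63, 7.74 and 12.5 normalized counts in control kidneys (7 to 14 raw counts) and 34.0, 28.6 and 25.9 in FeD kidneys (22 to 34 raw counts). The groups did not overlap, although at this depth each value rests on few reads. The mean rose 3.07-fold, from 9.61 ± 2.50 to 29.5 ± 4.13 (log2 fold change 1.59, standard error 0.31, adjusted P = 0.0037, edgeR). A requirement of at least 10 counts in every kidney removed this gene from the test.

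Their receptor Tek (chromosome 4, 94405980 to 94541667) had 2022, 2030 and 2005 normalized counts in control kidneys and 1170, 1388 and 1763 in FeD kidneys. Control kidneys were almost level and all FeD kidneys were lower, with FeD kidney 3 nearest to control. The mean was 71.3% of control (log2 fold change -0.49, standard error 0.13, adjusted P = 0.016, edgeR). The call was lost without control kidney 2 (adjusted P = 0.053), control kidney 3 (0.051) or FeD kidney 2 (0.052), while the log2 fold change stayed between -0.65 and -0.34. Tie1, the orphan receptor that pairs with Tek, fell to 74.1% of control (log2 fold change -0.43, standard error 0.068, adjusted P = 0.0015, edgeR). Ptprb, the endothelial phosphatase VE-PTP that dephosphorylates Tek, rose 1.36-fold, with 2815, 2742 and 2789 normalized counts in control kidneys and 2922, 3797 and 4642 in FeD kidneys (log2 fold change 0.45, adjusted P = 0.035, edgeR). The Ptprb call was lost when any 1 control kidney (adjusted P from 0.089 to 0.11) or FeD kidney 2 (0.058) was left out, and without FeD kidney 3 the log2 fold change was 0.28 (0.042).

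Vegfa, the most abundant of these ligands, did not pass the test. Vegfa (chromosome 17, 46153942 to 46169326) had 5548, 5349 and 5998 normalized counts in control kidneys and 5754, 4498 and 5284 in FeD kidneys. The groups overlapped. The log2 fold change was -0.12 (95% interval -0.35 to 0.11, adjusted P = 0.35, edgeR), and -0.0086 without FeD kidney 2, -0.19 without FeD kidney 1 and -0.075 without control kidney 3. Counts per gene do not separate the splice forms of Vegfa, which differ in how far they diffuse. Pgf (chromosome 12, 86507589 to 86518246), placental growth factor, which binds Flt1 but not Kdr, was scarce at 36.4, 39.8 and 46.3 normalized counts in control and 27.0, 20.8 and 34.5 in FeD kidneys. All FeD kidneys were lower by a narrow margin, and the difference of -0.56 on the log2 scale (95% interval -1.15 to 0.042) missed the threshold (adjusted P = 0.11, edgeR), as did -0.38 without FeD kidney 2 and -0.75 without FeD kidney 3 (adjusted P = 0.27 and 0.055).

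The receptors of these ligands moved in opposite directions. The signalling receptor Kdr (chromosome 5, 76328852 to 76374483) had 2083, 2204 and 1900 normalized counts in control kidneys and 1263, 1602 and 1261 in FeD kidneys. All FeD kidneys were lower, and here FeD kidney 3 was not the nearest to control. The mean fell from 2062 ± 153 to 1375 ± 196, or 66.7% of control (log2 fold change -0.59, standard error 0.10, adjusted P = 0.0026, edgeR), and the call held with any kidney left out.

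The decoy receptor Flt1 (chromosome 5, 148373180 to 148537587) had 1284, 1301 and 1224 normalized counts in control kidneys and 1345, 1729 and 2109 in FeD kidneys. The groups did not overlap, but FeD kidney 1 lay just above the controls and FeD kidney 3 far above them. The mean rose 1.36-fold (log2 fold change 0.45, standard error 0.14, adjusted P = 0.033, edgeR). The call was lost without any single control kidney or without FeD kidney 2 (adjusted P from 0.055 to 0.11), and without FeD kidney 3 the log2 fold change was 0.28 (adjusted P = 0.044). With an offset for exon length the log2 fold change was 0.32 for Flt1 (adjusted P = 0.045, edgeR) and -0.65 for Kdr. Membrane-bound and secreted Flt1 were counted together.

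Within each kidney, Flt1 per Kdr was 0.616, 0.590 and 0.644 in control and 1.06, 1.08 and 1.67 in FeD kidneys. The groups were well separated, and the log2 ratio rose by 1.01 (exact two-sided permutation P = 0.10, the smallest possible; adjusted P = 0.13 over the 10 ratios). Vegfa per Kdr was 2.66, 2.43 and 3.16 in control and 4.56, 2.81 and 4.19 in FeD kidneys. FeD kidney 2 overlapped the controls, and the log2 ratio differed by 0.46 (exact two-sided permutation P = 0.20, adjusted P = 0.22). Without FeD kidney 2 it differed by 0.68 (exact permutation P = 0.10, the smallest possible).

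Of the 10 other genes of these pathways, 1 rose (Ptprb), 3 fell (Vegfb, Tie1 and Apela) and 6 did not pass. Their median log2 fold change was 0.016, and none changed 2-fold. Among all tested genes, 22.4% rose and 23.3% fell at this adjusted P, and these shares stand beside the counts of every other list given here. Vegfb, a Flt1 ligand linked to oxidative tissues, had 1036, 1086 and 1258 normalized counts in control and 679, 547 and 561 in FeD kidneys. The groups were far apart (52.8% of control, log2 fold change -0.92, standard error 0.11, adjusted P = 0.00047, edgeR). The lymphatic growth factors Vegfc and Figf (Vegfd), their receptor Flt4, the co-receptors Nrp1 and Nrp2 and the extracellular Tie1 ligand Svep1 had log2 fold changes from -0.19 for Flt4 to 0.36 for Figf, with adjusted P from 0.17 to 0.90 (edgeR). Their groups overlapped. FeD kidney 3 held 1.71 times as many Figf counts as the mean of FeD kidneys 1 and 2, 1.44 times as many for Nrp1 and 1.54 times as many for Nrp2, and without it Nrp1 was lower than control (log2 fold change -0.21, adjusted P = 0.015, edgeR). Figf passed without FeD kidney 1 (0.56, adjusted P = 0.045) and had 0.053 without FeD kidney 3. Flt4 passed with an offset for exon length and the replicate block (-0.27, adjusted P = 0.041).

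**Figure D3:**
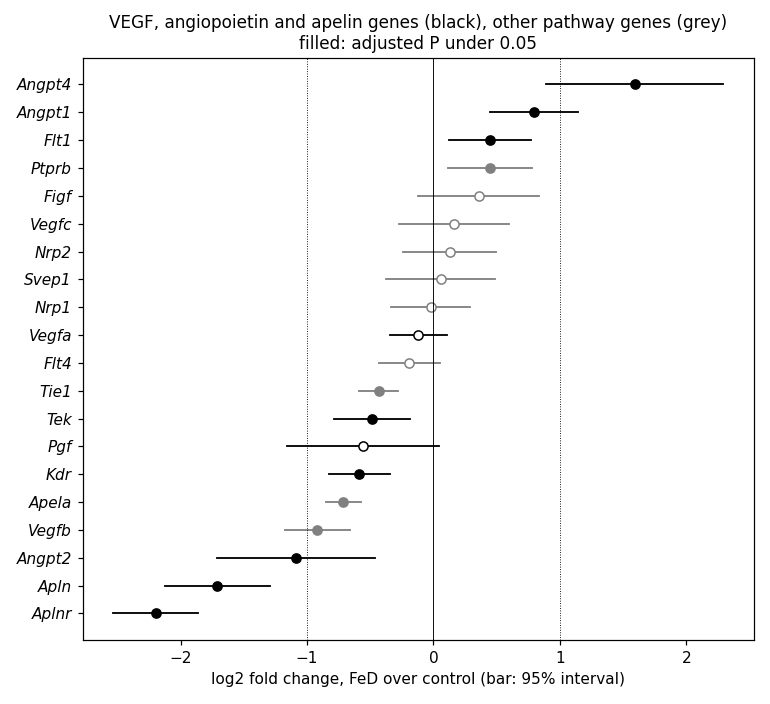
Log2 fold change of FeD over control kidneys from edgeR with its 95% interval for the 10 VEGF, angiopoietin and apelin genes (black) and 10 other genes of the same pathways (grey); filled points passed an adjusted P of 0.05 and dotted lines mark a 2-fold change. Aplnr at -2.20 and Apln at -1.71 lie at one end and Angpt4 at 1.59 at the other, and the 2 receptors of Vegfa lie on opposite sides of 0.

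Levels between genes were compared per exon length, as RPKM (reads scaled by exon length and TMM-adjusted library size, computed here from the counts). In control kidneys the order of mean RPKM was Vegfa (73.5), Aplnr (34.1), Angpt2 (30.2), Tek (24.0), Kdr (15.9), Apln (8.95), Angpt1 (6.25), Flt1 (6.14), Pgf (1.45) and Angpt4 (0.230). Neighbours overlapped between kidneys for Aplnr and Angpt2 and for Angpt1 and Flt1, and the others were separate. In FeD kidneys the order was Vegfa (67.5), Tek (17.1), Angpt2 (14.2), Angpt1 (10.8), Kdr (10.6), Flt1 (8.35), Aplnr (7.40), Apln (2.71), Pgf (0.971) and Angpt4 (0.706). Here neighbours overlapped from Tek through Angpt2, Angpt1, Kdr and Flt1 to Aplnr, as did Pgf and Angpt4, while Vegfa and Tek, Aplnr and Apln, and Apln and Pgf were separate. Aplnr thus went from second to seventh of the 10, and Vegfa stayed first. Exon lengths join all annotated isoforms (11583 bases for Flt1), so the RPKM of a gene expressed mainly in a short isoform is too low.

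**Figure D4:**
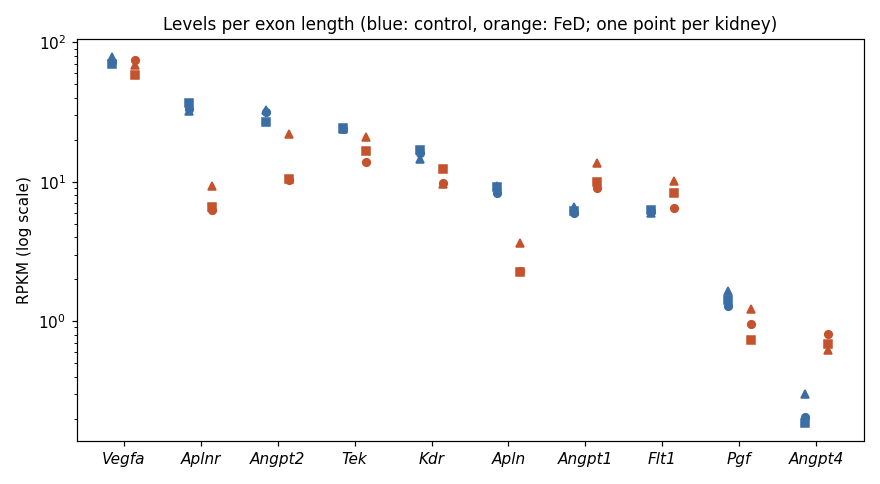
RPKM of the 10 genes on a logarithmic axis, 1 point per kidney (blue control, orange FeD; circle, square and triangle for kidneys 1 to 3), ordered by the control mean. Vegfa stays the highest at 58.7 to 78.2 in all kidneys, whereas Aplnr drops from 32.4 to 36.7 in control to 6.25 to 9.36 in FeD kidneys.

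Genes that mark the endothelium moved with these results. Of 20 pan-endothelial genes, 11 fell, 1 rose (Clec14a) and 8 did not pass, and the median was -0.44 on the log2 scale; their summed level was 36614 to 36859 normalized counts in control and 24054 to 32327 in FeD kidneys, highest in FeD kidney 3. None was at 0. The fall reached -1.04 for Emcn, a glycoprotein of capillaries and veins, and was -0.42 for the junction gene Cdh5 (adjusted P = 0.021, edgeR), while the pan-endothelial adhesion gene Pecam1 had 3146, 3129 and 3060 normalized counts in control and 2755, 3351 and 3856 in FeD kidneys and missed the threshold (0.094 on the log2 scale, adjusted P = 0.52). The number of these genes that fell was 9 without FeD kidney 2 and 15 without FeD kidney 3; none rose with any single control kidney removed, and 2 rose without FeD kidney 1. In whole kidneys, fewer endothelial cells and less RNA per endothelial cell cannot be told apart.

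The 6 genes made by endothelium, of which Angpt2 is also released by mural cells, were therefore also set against the mean log2 level of these 20 genes in the same kidney. Relative to that mean, the log2 level in FeD kidneys differed from control by -1.88 for Aplnr, -1.40 for Apln, -0.83 for Angpt2, -0.16 for Tek and 0.77 for Flt1. FeD and control kidneys did not overlap in any of these 5, and each had an exact two-sided permutation P of 0.10, the smallest possible (adjusted P = 0.13 over the 10 ratios). Kdr differed by -0.24, with overlapping groups (exact permutation P = 0.30), by -0.089 without FeD kidney 3 (exact permutation P = 0.50) and by -0.37 without FeD kidney 2 (exact permutation P = 0.10, the smallest possible). Tek differed by -0.0996 without FeD kidney 1. With Pecam1 and Cdh5 alone as the reference, the differences were -2.05 for Aplnr, -1.57 for Apln, -1.01 for Angpt2, -0.41 for Kdr, -0.33 for Tek and 0.60 for Flt1, each with an exact permutation P of 0.10, Kdr included.

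Among 7 genes known from endothelial tip cells, the leading cells of a sprout in which Apln and Angpt2 are also found, 3 fell, 2 rose and 2 did not pass. Esm1, a secreted tip cell proteoglycan, had 521, 591 and 430 normalized counts in control and 90.0, 93.5 and 155 in FeD kidneys, and Cxcr4, which leukocytes also express, had 120, 131 and 121 and then 273, 266 and 280, beside the rise of the leukocyte genes Cd68 and Ptprc and the fall of the leukocyte gene Cd79a given above. Both pairs of groups were far apart, in opposite directions (log2 fold change -2.17, adjusted P = 0.00019 for Esm1, and 1.14, adjusted P = 0.00014 for Cxcr4, edgeR). The Notch ligand Dll4 had a log2 fold change of -0.25 and did not pass (adjusted P = 0.11). Without FeD kidney 3, 4 of the 7 tip cell genes fell, 2 rose and 1 did not pass.

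The cells that make the ligands were examined in the same way. Of 8 podocyte genes, 2 rose, 0 fell and 6 did not pass, with a median of -0.13 on the log2 scale and summed levels of 14825 to 16156 normalized counts in control and 12300 to 17020 in FeD kidneys; the slit diaphragm gene Nphs1 (-0.14) did not pass, Magi2 was the lowest at -0.36 and Wt1 rose the most at 0.73. The number of podocyte genes that rose was 1, 0 and 1 without control kidney 1, 2 and 3, and 2 fell without FeD kidney 1 and 1 without FeD kidney 3. Of 8 tested mural genes, 4 rose, 3 fell and 1 did not pass, with summed levels of 14089 to 15201 in control and 21472 to 25743 in FeD kidneys. Without Rgs5 the sums were 10856 to 11617 in control and 11560 to 13099 in FeD kidneys, so most of the difference in the sum was Rgs5. Of the pericyte genes, Pdgfrb (log2 fold change 0.59, adjusted P = 0.0030, edgeR) and Rgs5 (1.73, adjusted P = 3.5e-05) rose and Cspg4 fell (-0.24, adjusted P = 0.043). Of the contractile and filament genes, Myh11 and Des fell (-1.31 and -1.45), Tagln rose (0.47, adjusted P = 0.00084) and Acta2 did not pass (0.035, adjusted P = 0.72). Notch3, a receptor of mural cells, rose (0.35). The number of mural genes that rose was 3 without control kidney 1 or 2 or FeD kidney 1, and 3 with the length offset. The number that fell was 2 without control kidney 2 or 3, without any 1 FeD kidney, with DESeq2 and with the replicate block. Ren1 was listed at 0 in every kidney. Of 4 tested lymphatic genes, Lyve1 rose (1.37), Prox1 (-1.31), which tubule cells also express, and Pdpn (-0.37) fell, and Mmrn1 did not pass; Ccl21a was listed at 0, and the summed levels were 792 to 963 in control and 472 to 758 in FeD kidneys. Most of this sum was Prox1 and Pdpn, with means of 483 and 316 in control and 192 and 245 in FeD kidneys. Lyve1 and Mmrn1 had means of 43.6 and 47.2 in control and 114 and 80.7 in FeD kidneys. No lymphatic gene rose without control kidney 2 or 3, and 1 fell, not 2, without control kidney 1 or 3 or FeD kidney 1 or 2. The part of any of these shifts in the results for the ligands and receptors was not tested.

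**Figure D5:**
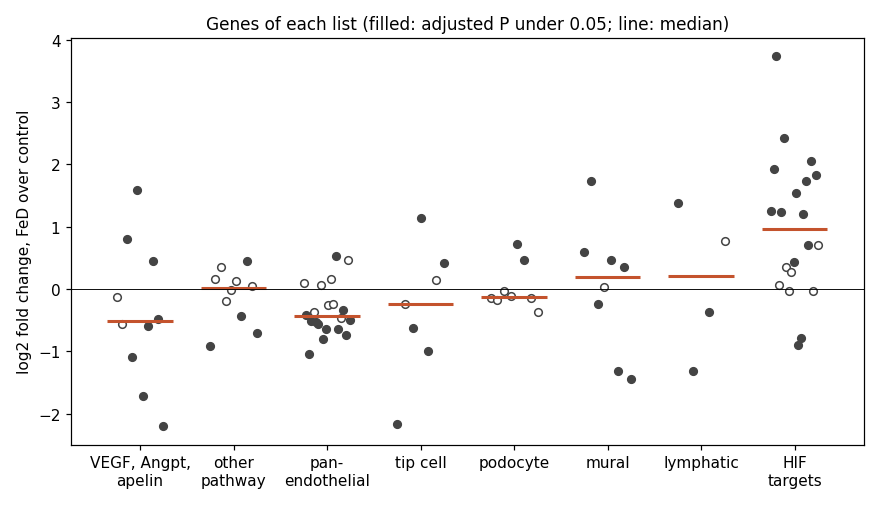
Log2 fold change of FeD over control kidneys (edgeR) for the tested genes of each list, 1 point per gene, filled where the adjusted P was under 0.05, with a line at the median. The median was -0.52 for the VEGF, angiopoietin and apelin genes, -0.44 for 20 pan-endothelial genes and 0.96 for 20 HIF targets.

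Of 20 HIF target genes from outside these families, 12 rose, 2 fell and 6 did not pass, and their median was 0.96 on the log2 scale. Epo was the highest at 3.73 and Car9 the lowest at -0.91, and the vascular peptides Adm and Edn1 rose by 1.25 and 1.93. Vegfa, commonly counted among HIF targets, had -0.12 and Apln -1.71 in the same kidneys, while Flt1 rose by 0.45. Of the 20 HIF targets, 14 rose without FeD kidney 2 and 13 without FeD kidney 3. The number that rose was 15 with the length offset and replicate block. With at least 10 counts in every kidney it was 11 of 19 tested.

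Genes with the most similar profile over the 6 kidneys were sought for Aplnr, Apln and Angpt2, which changed 2-fold and averaged 50 or more normalized counts. By Pearson's r of log2 CPM, Aplnr was closest to Ces1d and Aifm1 (r = 0.999 and 0.998), Apln to Pdk3 and Tspan9 (both r = 0.999), and Angpt2 to Atp1b3 and Hmox2 (r = 0.999 and 0.998). These values describe 6 kidneys in 2 groups, where r was at least 0.95 for 1068, 969 and 356 of the 12932 other genes compared with Aplnr, Apln and Angpt2.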

How the data were processed

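RNA-seq counts of 3 control and 3 FeD kidneys were analysed. Per the labels, the authors sequenced poly-A TruSeq libraries. The submitters' processing notes name CASAVA 1.8.2, Trimmomatic, TopHat2 2.0.11, HTSeq and the mm9 build without settings; the deposited values are raw counts per gene, not normalized and not pooled. The annotation and strand setting are not given in the sources used here.

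The main test was edgeR 4.0.16 under R 4.3.3 (filterByExpr, TMM, glmQLFit and glmQLFTest, Benjamini-Hochberg adjustment over 15145 genes). Standard errors are the log2 fold change divided by the square root of F, and intervals (95%) use them. Ratios used log2 of normalized counts plus 1 and exact permutation tests. Coordinates and exon lengths came from GENCODE on NCBIM37 (mm9), where Apela had no entry. Pairs within a group differed by more than sampling noise (chi-square per degree of freedom 3.77 to 30.4). No result of a test on simulated data is given here.

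Genes were named by rule: all 10 genes, the other pathway genes, chosen markers, the extremes of each list and the most similar profiles; 1 gene that the rule names is not reported here. The genes and lists were chosen with earlier results of these data known. Myh11, Star, Cyp11b1, Cyp21a1, Mmrn1, Pdpn, Cspg4, Tagln, Acta2, Notch3, Cd68, Ptprc, Cd79a and Cd3e were named after their values were seen.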

Additional observations from a re-analysis of the deposited data

How the results depend on the processing

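Alternatives were DESeq2's size factors, library size alone, no filter, at least 10 counts in every kidney, DESeq2 1.42.0, the replicate number as a block, an offset for exon length, both together, and each kidney left out. Running them on the marker lists, and the mural sum without Rgs5, was chosen after seeing the data. The 10 genes kept their direction wherever they were tested. The number changed 2-fold upward went from 1 to 0 with at least 10 counts in every kidney, because Angpt4 was then not tested. Leaving out a kidney gave 2 to 3 genes that rose and 4 to 5 that fell, and 2 to 3 that fell 2-fold. With the replicate block the numbers were 3 and 5, and Angpt2 had a log2 fold change of -1.17; no call among the 10 genes changed. The deviations of same-numbered kidneys from their group means correlated at -0.16, 0.000096 and -0.035, and no kidney correlated best with its own number. With 3 kidneys per group, these values cannot exclude that the numbers pair the kidneys.

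Of the other pathway genes, Svep1 changed sign with the length offset (-0.10), with the length offset and replicate block (-0.12), and without control kidney 1 (-0.0099) or FeD kidney 3 (-0.14). Without FeD kidney 3, Vegfc (-0.0068) and Nrp2 (-0.10) changed sign, and Nrp1 did so without FeD kidney 1 (0.080) or 2 (0.090). With a kidney left out, the log2 fold change ranged from -0.0068 to 0.27 for Vegfc, from -0.21 to 0.090 for Nrp1, from -0.10 to 0.26 for Nrp2 from -0.14 to 0.27 for Svep1, from 0.053 to 0.56 for Figf and from -0.27 to -0.13 for Flt4. Ratios kept their direction under pseudocounts of 0.5 and 5 and with any kidney left out; with kidneys paired by number in the replicate block, the exact P was 0.25, the smallest possible. Low counts limit Angpt4 and Pgf.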
